A study of Mus musculus with 52 samples.

Results

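The potassium channel genes are described here in immortalized mouse embryonic fibroblasts (MEFs), for 3 methylation states of lysine 4 of histone H3 (H3K4me1, H3K4me2, and H3K4me3) mapped by ChIP-seq. They are the 97 genes, of 23043 kept in all, whose symbol begins with Kcn followed by letters and a number. Each is represented by its longest RefSeq transcript of at least 250 bp, so that symbol and transcript length alone define the members. The set holds 30 voltage-gated pore-forming subunits, 16 auxiliary subunits, 15 inward rectifiers, 14 tandem-pore channels, 10 electrically silent (modifier) subunits, 8 calcium- or sodium-activated channels, and 4 noncoding transcripts that carry a channel gene's name.

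FC/FC cells were MEFs with both Mll2 (Kmt2d) alleles floxed that had been exposed to tamoxifen for 24 h, which excises part of the gene, and according to the methods were then grown for several further days. F/F cells were the same floxed line without tamoxifen (0 h). Treatment and genotype therefore go together and cannot be told apart, and none of the libraries used is named as a vehicle or unfloxed control. For its PCR check of the excision, the supplement describes vehicle (DMSO) as the alternative to tamoxifen. There were 3 libraries per mark and genotype, which the methods call independent experiments of an immortalized line, so that p-values measure the spread between cultures of that line. Totals of reads within transcripts, recovered from the RPKM values, ran from 26714377 to 49990775 per library. They sum over all transcripts, so reads in overlapping transcripts can count more than once and reads between genes are left out. They are therefore not the sequencing depth of a library. These tables count reads over whole transcripts, so they do not check the deletion itself. One library, H3K4me2 FC/FC replicate 1, carries the catalogue number of the antibody to H3K4me1 in its label, although H3K4me2 is named everywhere else in it. Its Spearman correlation over genes was 0.990 to 0.992 with the other H3K4me2 libraries, 0.939 to 0.950 with H3K4me3, and 0.822 to 0.857 with H3K4me1, and the H3K4me2 calls, start-site counts, class medians, and region counts are given with and without it.

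Potassium channels let K+ leave or enter cells and so set the resting potential and end action potentials. Pore-forming subunits of the voltage-gated families open on depolarization, calcium-activated channels couple the membrane to intracellular Ca2+, inward rectifiers and tandem-pore channels hold the resting potential, and auxiliary and electrically silent subunits alter the gating of a partner. Most of these genes are best known from neurons and cardiac muscle. H3K4me3 marks the start sites of active or poised genes, H3K4me2 lies at start sites and enhancers, and H3K4me1 is most typical of enhancers. MLL2 is one of the enzymes that add methyl groups to H3K4, mainly at enhancers.

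The cells carried the marks of fibroblasts. H3K4me3 peaks lay at the TSS of 12 of 13 fibroblast markers in all 6 libraries. The exception, Thy1, had H3K4me1 alone. Of 10 neural markers 2 (Tubb3 and Map2) had H3K4me3 in all 6 libraries, as did 0 of 7 cardiac and 0 of 4 haematopoietic markers. The mark lay at 3 of 5 smooth muscle, 2 of 4 epithelial, 1 of 4 endothelial, and 1 of 4 skeletal muscle markers. The authors' own list of active genes held 0 of the 97 potassium channel genes, against 3623 of the 23043 genes kept. Per the methods, that list needs RPKM above 1 in every γH2AX, RNA polymerase II, and nascent RNA (GRO-seq) replicate of both genotypes. It held 9 of the 13 fibroblast markers, so absence from it does not show that a gene was silent.

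Promoters of 6 members are shown for reference beside the values that follow. They are the 3 with the highest mean H3K4me3 RPKM among those with an H3K4me3 peak at the TSS in all 6 libraries, and the 3 longest without a peak of any mark there, as far as the RefSeq table used here (GRCm38.p6, which is mm10) held their start site. Kcnmb4os2 is a noncoding transcript antisense to Kcnmb4 that runs across its start, Kcnf1 encodes a silent subunit, and Kcnq1ot1 is the imprinted antisense transcript of the Kcnq1 locus. Kcnh8 encodes a voltage-gated channel of the ether-à-go-go superfamily, and Kcnip1 and Kcnmb2 encode auxiliary subunits. Each sequence runs 5′ to 3′ from 250 bp before to 50 bp after the start, with every CpG in capitals.
Kcnmb4os2 (chr10:116472913-116473212, plus strand): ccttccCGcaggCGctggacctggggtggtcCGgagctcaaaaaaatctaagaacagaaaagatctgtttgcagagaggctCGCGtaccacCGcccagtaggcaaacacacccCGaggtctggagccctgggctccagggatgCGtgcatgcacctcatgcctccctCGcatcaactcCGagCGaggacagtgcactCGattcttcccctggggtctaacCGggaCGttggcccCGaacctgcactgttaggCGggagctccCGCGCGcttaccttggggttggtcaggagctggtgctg
Kcnf1 (chr12:17176839-17177138, minus strand): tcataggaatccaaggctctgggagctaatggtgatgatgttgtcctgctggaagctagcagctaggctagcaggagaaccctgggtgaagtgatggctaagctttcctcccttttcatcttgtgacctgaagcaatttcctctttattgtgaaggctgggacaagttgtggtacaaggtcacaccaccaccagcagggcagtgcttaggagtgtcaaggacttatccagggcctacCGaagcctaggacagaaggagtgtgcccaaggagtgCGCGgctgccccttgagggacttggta
Kcnq1ot1 (chr7:143296498-143296797, minus strand): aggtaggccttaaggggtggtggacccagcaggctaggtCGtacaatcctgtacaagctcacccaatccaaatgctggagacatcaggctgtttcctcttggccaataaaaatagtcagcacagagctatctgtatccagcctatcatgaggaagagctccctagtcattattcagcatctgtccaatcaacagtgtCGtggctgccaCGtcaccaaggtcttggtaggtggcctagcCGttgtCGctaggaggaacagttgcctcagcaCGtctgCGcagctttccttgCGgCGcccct
Kcnh8 (chr17:52602459-52602758, plus strand): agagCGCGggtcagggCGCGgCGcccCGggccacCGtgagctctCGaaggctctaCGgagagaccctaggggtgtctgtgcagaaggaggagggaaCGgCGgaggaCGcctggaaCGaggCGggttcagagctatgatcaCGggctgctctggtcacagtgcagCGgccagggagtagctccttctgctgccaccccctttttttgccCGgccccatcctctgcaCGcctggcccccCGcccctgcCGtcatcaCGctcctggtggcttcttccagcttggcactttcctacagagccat
Kcnip1 (chr11:33993144-33993443, minus strand): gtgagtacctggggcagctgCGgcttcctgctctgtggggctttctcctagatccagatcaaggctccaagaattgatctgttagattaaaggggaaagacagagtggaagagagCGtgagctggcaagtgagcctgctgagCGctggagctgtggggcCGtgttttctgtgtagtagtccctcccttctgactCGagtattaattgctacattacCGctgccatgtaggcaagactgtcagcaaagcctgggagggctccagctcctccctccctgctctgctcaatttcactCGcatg
Kcnmb2 (chr3:31902453-31902752, plus strand): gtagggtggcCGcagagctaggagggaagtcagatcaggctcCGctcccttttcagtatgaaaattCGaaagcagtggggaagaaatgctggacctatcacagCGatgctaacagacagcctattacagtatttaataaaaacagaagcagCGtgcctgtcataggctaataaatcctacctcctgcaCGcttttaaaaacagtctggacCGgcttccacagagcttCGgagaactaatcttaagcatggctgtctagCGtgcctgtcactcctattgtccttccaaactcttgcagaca
These promoters held 19 CpG in Kcnmb4os2, 3 in Kcnf1, and 9 in Kcnq1ot1, with H3K4me3 peaks, and 21 in Kcnh8, 7 in Kcnip1, and 9 in Kcnmb2, without a peak. The median over the 32851 promoters of the table was 7. On both strands, GGGCGG was found in Kcnmb4os2 and Kcnh8 (35.7% of all promoters of this length hold it), CCAAT in Kcnq1ot1 alone, at 3 places (37.4%), and CAGCACC, a part of the element bound by the neuronal repressor REST, in Kcnmb4os2 (7.14%). TATAAA (13.6%) and CACGTG (7.15%) were in none of the 6. A match is a description of the letters and not of a bound site.

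At start sites, H3K4me3 covered a smaller share of the potassium channel genes than of all genes, and H3K4me2 without H3K4me3 a larger one. A gene was counted as marked when a peak lay within 1 kb of its TSS. The TSS is that of the longest transcript, so the classes do not count marks at other starts of a gene. H3K4me3 lay at 22 of 97 members in all 6 libraries (22.7%), against 53% of all genes kept. H3K4me2 without any H3K4me3 lay at 10 members (10.3%), against 4.53% of all genes. H3K4me1 alone, in all 6 libraries, was found at Kcnk2 and Kcnk7 (2.06%), against 0.391% of all genes. No peak of any mark was found at 34 members (35.1%), against 32.7% of all genes, so the share of unmarked members was close to the background. The remaining 29 members (29.9%, against 9.44%) had peaks in some libraries and not in others. These shares are descriptions with no test.

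Mark by mark, H3K4me1 lay at the TSS of 18 members in all 6 libraries (18.6%, against 37.9% of all genes), of 38 in at least 1 library (39.2%, against 60.7%), and of 59 in none (60.8%, against 39.3%). H3K4me2 lay at 43 members in all 6 (44.3%, against 60.5%), at 59 in at least 1 (60.8%, against 64.8%), and was absent from 38 (39.2%, against 35.2%). H3K4me3 lay at 33 in at least 1 (34%, against 56.2%) and was absent from 64 (66%, against 43.8%). H3K4me2 was thus the mark whose spread over start sites was nearest to that of the whole genome. The members with all 3 marks in all 6 libraries numbered 10, Kcnab1, Kcnab2, Kcnab3, Kcnf1, Kcng3, Kcnh2, Kcnh3, Kcnk10, Kcnk13, and Kcnn1.

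Whole-transcript levels followed these classes in part. The median H3K4me3 level was 0.305 RPKM in the 22 members with H3K4me3 at the TSS, 0.200 in the 10 with H3K4me2 alone, 0.179 in the 29 variable ones, and 0.138 in the 34 without a peak (RPKM is reads per kb of transcript, scaled to the library). For H3K4me2 the medians of the same classes were 0.512, 0.224, 0.278, and 0.102 RPKM, and 0.507, 0.214, 0.270, and 0.10 RPKM without FC/FC replicate 1. The members without a peak were also the shortest, with a median length of 14.0 kb, against 43.8 kb for those with H3K4me3. By family, no TSS peak of any mark was found at 9 of 16 auxiliary subunits and 8 of 15 inward rectifiers. It was so at 7 of 30 voltage-gated subunits and at 1 of 8 genes grouped as calcium- or sodium-activated. That gene was Kcnu1, placed there by its symbol alone, as families were set by symbol.

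**Figure D1:**
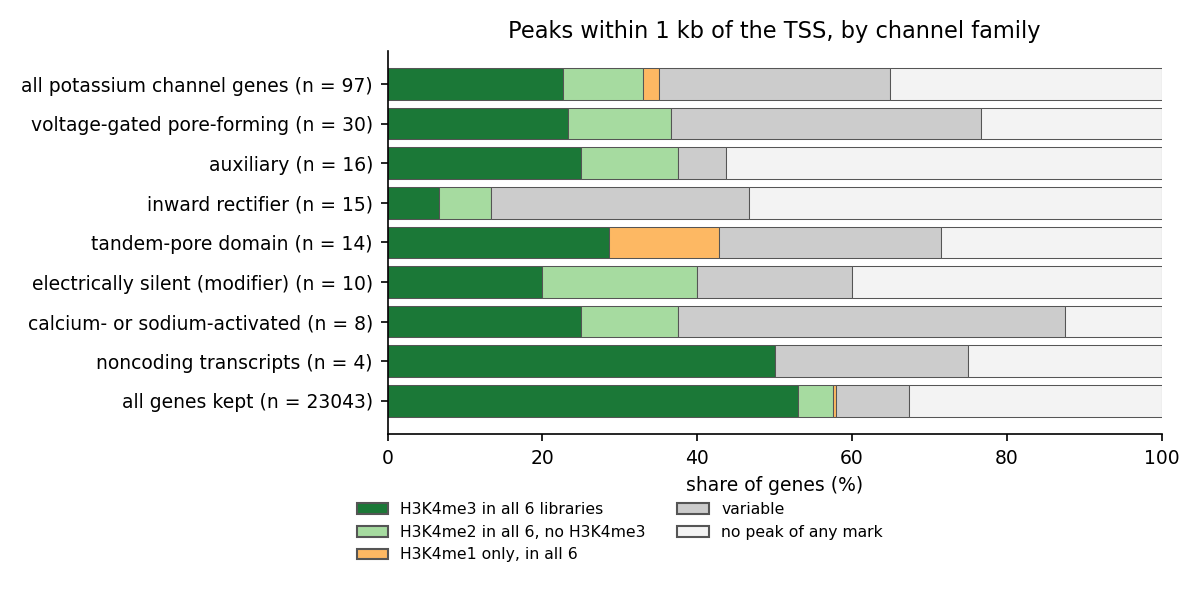
Share of genes (x axis, %) in each class of peaks within 1 kb of the TSS over the 6 libraries of each mark, for all 97 potassium channel genes, for each family (n in parentheses), and for all genes kept. H3K4me3 in all 6 libraries covers 22.7% of the members and 53% of all genes, while the shares without a peak are 35.1% and 32.7%.

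H3K4me3 was nested within H3K4me2. All 33 members with an H3K4me3 peak at the TSS in at least 1 library had H3K4me2 there in all 6, as did 99.5% of such genes over the genome. The reverse differed from the background. Of the 43 members with H3K4me2 at the TSS in all 6 libraries, 22 (51.2%) had H3K4me3 in all 6 and 10 (23.3%) had it in none, against 87.5% and 7.48% of the 13936 such genes. Without H3K4me2 FC/FC replicate 1, the same 43 and the same 10 members were found.

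The voltage-gated pore-forming subunits supplied 7 of the 22 members with H3K4me3 in all libraries. They were Kcna7, Kcnd1 (an A-type channel), Kcnq5 (an M-type channel), and Kcnh1, Kcnh2, Kcnh3, and Kcnh7 of the ether-à-go-go superfamily. Kcnh2, best known for repolarization of the heart, had H3K4me3 TSS peaks with scores of 444, 97.8, and 266 in FC/FC, against 112, 142, and 407 in F/F (score, -10 times the log10 of the p-value given by the peak caller, with a minimum of 50). The scores of Kcnh2 overlapped between the genotypes. Kcnq5 had scores from 2507 to 3100 in FC/FC and from 1019 to 2636 in F/F. Scores depend on depth and saturate near 3100, so they describe a peak and are no measure of a change.

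The tandem-pore channels supplied 4 of the 22. They were Kcnk5 (TASK-2), Kcnk6 (TWIK-2), Kcnk10 (TREK-2), and Kcnk13 (THIK-1). This family also held both members with H3K4me1 alone at the TSS, Kcnk2 (TREK-1, a mechanically gated channel) and Kcnk7. Elsewhere in Kcnk2, 1 H3K4me3 region and 5 H3K4me2 regions were present in all 6 libraries. That H3K4me3 region lay within 5 kb of an annotated TSS. At the Kcnk2 TSS the H3K4me1 peak scored 1198, 1026, and 1059 in FC/FC, against 811, 799, and 1441 in F/F. At Kcnk7 it scored 163, 75.7, and 110 in FC/FC, against 281, 183, and 444 in F/F. Both peaks were present in every H3K4me1 library, and single scores were not tested between the genotypes.

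Auxiliary subunits supplied 4 of the 22, with all 3 cytoplasmic β subunits of the Shaker-type channels (Kcnab1, Kcnab2, and Kcnab3) and Kcnmb4, a β subunit of the BK channel. Kcnab2 and Kcnab3 had H3K4me3 and H3K4me2 scores of 3100 in all 6 libraries. The Kcnab2 TSS lies 593 bp from that of Nphp4, and Kcnmb4 and Kcnmb4os2 lie 360 bp apart, so the peaks at these starts cannot be assigned to 1 gene. The Kcnab3 TSS lies 2272 bp from that of Trappc1, and H3K4me3 peaks there covered 4904 to 5474 bp. They were wide enough to take in both starts, which was not checked. The inward rectifiers held 1 of 15, Kcnj2, a strong rectifier of muscle. The calcium- or sodium-activated family held Kcnn1, a small-conductance calcium-activated channel, and Kcnt2, a sodium-activated channel. Silent subunits with H3K4me3 were Kcnf1 and Kcng3, and noncoding transcripts were Kcnmb4os2 and Kcnq1ot1. None of 5 genes of the Kcne family of single-span auxiliary subunits had a TSS peak of any mark in any library. Among them Kcne1l is annotated as a pseudogene and is counted with the auxiliary subunits by its symbol.

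The 10 members with H3K4me2 and no H3K4me3 included Kcnh4, Kcnh5, and Kcnh6 among voltage-gated subunits, Kcng2 and Kcns2 among silent subunits, Kcnip3 and Kcnip4 among auxiliary subunits, the inward rectifier Kcnj8 (a pore subunit of vascular KATP channels), and Kcnn2, a small-conductance calcium-activated channel. Their H3K4me2 peaks had a median score of 361 and a median width of 1245 bp (60 pairs of gene and library), against 2970 and 2649 bp for the 22 members with H3K4me3 (132 pairs). For each pair the highest score and the summed width of peaks at the TSS were taken. Kcnmb4 and Kcnmb4os2 share their peaks, which count for each of them. The highest of the 10 was Kcnj8, with H3K4me2 scores of 1034, 1239, and 1046 in FC/FC, against 896, 870, and 1209 in F/F. The lowest was Kcnh5, with 180, 152, and 102 in FC/FC, against 77.1, 74.5, and 86.7 in F/F.

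The question for the genotypes was whether the marks at these start sites differed after excision of Mll2. The number of members with a TSS peak overlapped between FC/FC and F/F for every mark. H3K4me1 lay at 33, 34, and 29 members in FC/FC (32.0 ± 2.65, SD, n = 3), against 29, 23, and 36 in F/F (29.3 ± 6.51). H3K4me2 lay at 56, 50, and 49 in FC/FC (51.7 ± 3.79), against 53, 47, and 53 in F/F (51.0 ± 3.46). H3K4me3 lay at 31, 27, and 30 in FC/FC (29.3 ± 2.08), against 25, 24, and 28 in F/F (25.7 ± 2.08). Over all genes, H3K4me3 covered 54.3% to 55.2% of TSSs in FC/FC and 53.6% to 54.8% in F/F. Without FC/FC replicate 1, the mean difference for H3K4me2 (FC/FC minus F/F) was -1.5 members, against 0.667 with it. With equal numbers of top-scoring peaks in each library it was 5.33 members for H3K4me2, and leaving out each library in turn gave -0.5 to 6 members for H3K4me1. Kcnq1, Kcnq3, and Kcnt1 had their only H3K4me2 TSS peak in that library.

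**Figure D2:**
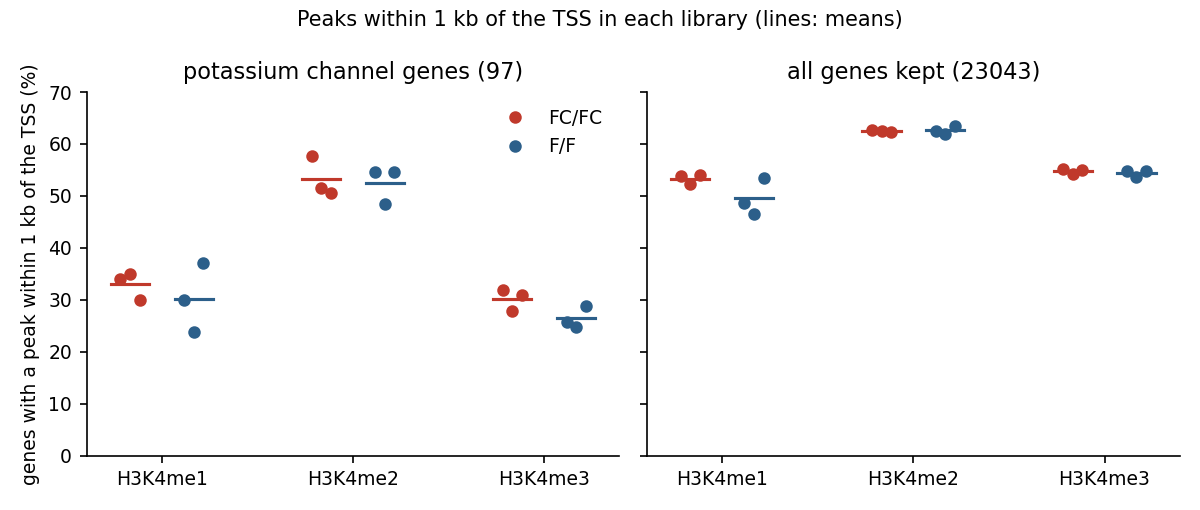
Share of genes with a peak within 1 kb of the TSS (y axis, %) in each library, FC/FC in red and F/F in blue, for the 97 potassium channel genes and for all 23043 genes kept, with lines at the means of 3 libraries. For H3K4me3 the members lie at 27.8% to 32.0% in FC/FC and 24.7% to 28.9% in F/F, and the ranges overlap for every mark.

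H3K4me3 at start sites that were marked in only some libraries leaned towards FC/FC. There were 11 such members, and all had H3K4me2 in all 6 libraries. Peaks were present in more FC/FC than F/F libraries at 8 (72.7%), in fewer at 2 (18.2%), and in as many at 1, against 55.0%, 25.8%, and 19.2% of the 751 genes of the genome with such a variable peak. The 8 were Kcnc1, Kcnc2, and Kcnc4, fast voltage-gated channels of the Shaw type, Kcnk3 (TASK-1), Kcnk12 (THIK-2), Kcns3, a silent subunit, Kcnj4, an inward rectifier, and Kcnma1, the pore of the BK channel. The 2 that leaned to F/F were Kcnk4 (TRAAK) and Kcnn4, the intermediate-conductance calcium-activated channel. The counts were not tested, and none of the 11 had peaks in all 3 libraries of one genotype and none of the other.

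These variable peaks were weak. The H3K4me3 libraries had 17129 to 18296 peaks in FC/FC and 17545 to 18701 in F/F. Of all TSSs, 54.3% to 55.2% had an H3K4me3 peak in FC/FC and 53.6% to 54.8% in F/F. The part of either in the lean towards FC/FC was not tested. The start of Kcnk3 lies 449 bp from that of Gm9899 and the start of Kcnma1 786 bp from that of 4930519K11Rik, so these peaks are shared. The scores of the variable peaks ran from 56.2 to 460 with a median of 106 (33 pairs of gene and library), against a median of 580 for the 22 members marked in all libraries. Kcnc2 had peaks of 227, 194, and 167 in FC/FC, against 197 in F/F replicate 3 alone. Kcnk12 had peaks of 197, 73.0, and 61.0 in FC/FC, against 59.0 in F/F replicate 3 alone. Kcnc1 had peaks of 120 and 106 in FC/FC replicates 1 and 3 and none in F/F, Kcns3 had 87.4 and 83.9 in the same FC/FC libraries, and Kcnk3 had 57.5 and 56.7. With peaks of a score of at least 100 alone, the mean difference in H3K4me3 (FC/FC minus F/F) was 0.667 members, against 3.67 at the caller's minimum.

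Kcnh4, a voltage-gated channel of the ELK type, was the only member whose TSS had a peak in all 3 libraries of one genotype and none of the other. Its H3K4me1 peak was absent in the 3 FC/FC libraries and scored 115, 97.6, and 67.7 in F/F. In the same direction, 0.126% of all genes had such an H3K4me1 peak, and 0.447% had one in FC/FC only, against 0 members. For H3K4me2 there were 0 such members, against 0.0694% of all genes in FC/FC only and 0.104% in F/F only, and for H3K4me3 there were 0, against 0.0391% and 0.0304%. The H3K4me2 peak of Kcnh4 was present in all 6 libraries. Its H3K4me1 RPKM over the gene was 0.870, 0.775, and 0.745 in FC/FC, against 0.949, 0.859, and 0.750 in F/F, which overlapped.

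Levels over whole transcripts were low for most members. RPKM counts reads over the transcript and 500 bp on each side per kb, scaled to the library's reads in transcripts, so a peak at the start of a long gene is diluted, and levels of genes are compared here only in this per-length unit. The median over the 97 members was 0.448 RPKM for H3K4me1, 0.205 for H3K4me2, and 0.185 for H3K4me3, against 0.739, 0.704, and 0.449 over all genes. The members ranged from 0.0752 to 2.61 for H3K4me1, from 0.0402 to 9.43 for H3K4me2, and from 0.0786 to 3.81 for H3K4me3. The filter for the test (RPKM above 1 in at least 3 of 6 libraries of a mark) was passed by 12, 6, and 3 members, that is 12.4%, 6.19%, and 3.09%, against 37.2%, 43.3%, and 39.4% of all genes.

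The highest H3K4me2 and H3K4me3 levels were at Kcnmb4os2 and Kcnab3. For H3K4me2, Kcnmb4os2, a transcript of 1824 bp, had 12.8, 8.11, and 7.83 RPKM in FC/FC, against 9.87, 7.87, and 10.1 in F/F. Kcnab3 had 9.58, 8.65, and 8.46 RPKM of H3K4me2 in FC/FC, against 9.12, 8.70, and 8.80 in F/F. The genotypes overlapped for both, and FC/FC replicate 1 was the highest library of Kcnmb4os2. For H3K4me3, Kcnab3 had 3.79, 3.76, and 3.55 RPKM in FC/FC, against 3.80, 4.06, and 3.90 in F/F, and Kcnmb4os2 had 4.76, 3.15, and 3.54 in FC/FC, against 3.96, 2.73, and 2.55 in F/F. The Kcnab3 values for H3K4me3 did not overlap, by a small margin, and its log2 fold change was -0.08 ± 0.05 (SE; limma adjusted p = 0.991). It was 1 of the 3 members tested for H3K4me3, against 3.87% of all genes tested with lower, non-overlapping values. Next for H3K4me3 came Kcnf1, with 1.56, 0.924, and 1.27 RPKM in FC/FC, against 1.96, 1.17, and 1.32 in F/F. Kcnq1ot1 had 0.888, 0.916, and 0.906 RPKM in FC/FC, against 0.838, 0.994, and 0.949 in F/F, and Kcnk4 had 0.603, 0.401, and 0.523 in FC/FC, against 0.599, 0.411, and 0.5 in F/F. All 3 overlapped between the genotypes. Kcnq1ot1 lies within Kcnq1, and reads of ChIP carry no strand, so its reads also count for Kcnq1.

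H3K4me1 levels were closer together, with 5 members at 2 to 3 RPKM. The highest was Kcnk7, the tandem-pore gene with H3K4me1 alone at its TSS, with 2.67, 2.24, and 2.18 RPKM in FC/FC, against 3.26, 2.57, and 2.70 in F/F. Kcnab3 had 2.35, 2.40, and 2.60 RPKM in FC/FC, against 2.83, 2.86, and 2.55 in F/F. Kcnj14 had 2.33, 2.49, and 2.43 RPKM in FC/FC, against 2.50, 2.75, and 2.45 in F/F. The values of these 3 genes overlapped between the genotypes, and the order among them lay within the spread of the libraries. Kcnmb4os2 and Kcnf1 followed.

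**Figure D3:**
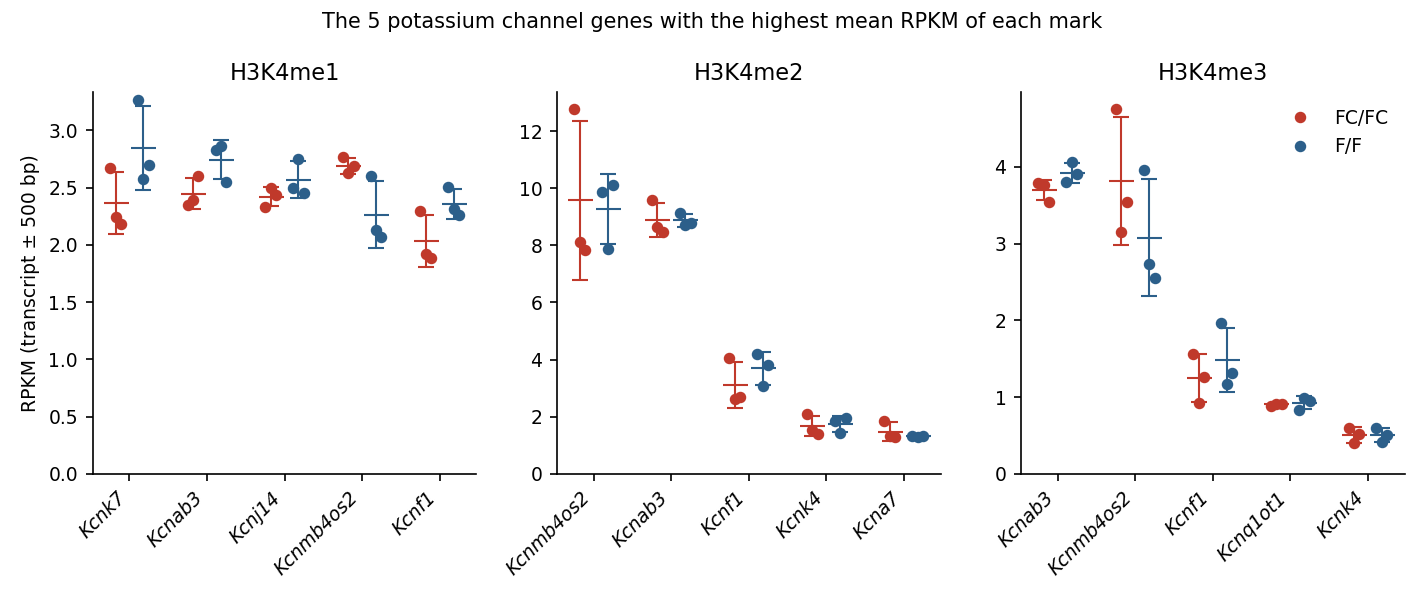
RPKM (y axis, linear, per mark) in each library for the 5 potassium channel genes with the highest mean, with FC/FC in red left of F/F in blue and bars for the mean and SD of 3 libraries. H3K4me2 and H3K4me3 are highest at Kcnmb4os2 and Kcnab3, and the genotypes overlap at all genes shown except Kcnmb4os2 for H3K4me1 and Kcnab3 for H3K4me3.

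Under limma on log2(RPKM + 0.1), at 0.05 after Benjamini-Hochberg adjustment over the genes tested for a mark, 0 of the members tested changed for any mark. For H3K4me1 this was 0 of 12 members in either direction, against 0% of all 8567 genes tested. At an unadjusted p under 0.05, 1 member was higher and 6 were lower, against 10% and 15% of all genes. With limma-voom on the recovered reads, 3 members were lower and 0 higher, against 6.88% and 1.39% of all genes. For H3K4me2 limma called 0 of 6 members, against 0.591% of the 9986 genes tested higher and 1.55% lower, with 0 members higher and 1 lower at an unadjusted p under 0.05 (21.4% and 7.62% of all genes) and 0 called by limma-voom (1.07% and 2.62%). For H3K4me3 it called 0 of 3 members, against 0% of the 9073 genes tested, with 0 at an unadjusted p under 0.05 (1.72% of all genes higher and 2.01% lower) and 0 by limma-voom.

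For H3K4me1, 9 of the 12 members tested had a negative log2 fold change, against 51% of all genes tested. Their median was -0.14, against a median of -0.0029 over all genes. The most negative was Kcnn1, with 1.73, 1.63, and 1.62 RPKM in FC/FC, against 2.49, 2.05, and 2.11 in F/F. The groups did not overlap, and the log2 fold change was -0.39 ± 0.08 (SE, n = 3 each; limma adjusted p = 0.067, limma-voom 0.00518). Kcnn4 had 1.4, 1.47, and 1.28 RPKM in FC/FC, against 1.83, 1.79, and 1.53 in F/F, also without overlap (-0.29 ± 0.08, limma adjusted p = 0.094, limma-voom 0.0265). Both genes encode calcium-activated channels. Kcnh2 had 1.32, 1.31, and 1.22 RPKM in FC/FC, against 1.68, 1.49, and 1.52 in F/F, again without overlap (-0.26 ± 0.06, limma adjusted p = 0.0794, limma-voom 0.0131). These 3 were the members with lower, non-overlapping values (25% of 12), against 18.7% of all genes tested, and 1 was higher, against 11.8%. Marker lists of cell types were summed for H3K4me1 in the same libraries. The sums were 28.2 to 29.4 RPKM in FC/FC, against 30.1 to 30.5 RPKM in F/F, for the 13 fibroblast markers. The 4 epithelial markers had 3.35 to 3.63 RPKM in FC/FC, against 4.37 to 4.51 RPKM in F/F. The 4 endothelial markers had 3.20 to 3.51 RPKM in FC/FC, against 3.52 to 3.84 RPKM in F/F, and the 10 neural markers 5.83 to 5.92 RPKM in FC/FC, against 5.94 to 6.26 RPKM in F/F. The sums of these 4 lists did not overlap between the genotypes. Those of the 7 cardiac markers (6.53 to 7.09 RPKM in FC/FC, against 6.85 to 8.59 RPKM in F/F) and the skeletal muscle, smooth muscle, and haematopoietic lists overlapped. The H3K4me1 sums of the 97 potassium channel genes also overlapped (53.9 to 58.0 RPKM in FC/FC, against 54.4 to 60.4 in F/F). So did those of all genes (21739 to 22245 RPKM in FC/FC, against 21424 to 22260 in F/F). A sum is weighted to its highest genes, and genes of a list could differ in direction. Of the neural markers, Tubb3, Gfap, and Sox10 had lower means in FC/FC, and the others higher ones. Col3a1, Pdgfra, Fn1, Twist1, and Prrx1 were higher among the fibroblast markers, and the others lower. The epithelial markers were all lower, and of the endothelial ones only Cdh5 was higher. The part of these lists in the values of the potassium channel genes was not tested.

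The member with higher H3K4me1 was Kcnmb4os2, with 2.76, 2.63, and 2.69 RPKM in FC/FC, against 2.60, 2.13, and 2.06 in F/F (log2 fold change 0.25 ± 0.08, limma adjusted p = 0.126). Kcnf1 had 2.30, 1.92, and 1.89 RPKM in FC/FC, against 2.51, 2.31, and 2.26 in F/F. Kcnk7 and Kcnf1 had log2 fold changes of -0.26 ± 0.10 and -0.21 ± 0.08, with overlapping values in the libraries (limma adjusted p = 0.165 and 0.158). Kcnab1 and Kcnk2, long genes with many H3K4me1 peaks, had log2 fold changes of 0.01 each with SE of 0.06 and 0.05. Kcnab3, Kcnk4, Kcnj14, and Kcnv2 lay between -0.16 and -0.05.

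For H3K4me2 the most negative member was Kcnj14, an inward rectifier best known from neurons. It had 0.879, 1.01, and 1.08 RPKM in FC/FC, against 1.22, 1.49, and 1.42 in F/F. The groups did not overlap (16.7% of 6 members, against 8.43% of all genes tested), and the log2 fold change was -0.44 ± 0.09 (SE, n = 3 each; limma adjusted p = 0.0633, and 0.0167 without FC/FC replicate 1). For H3K4me3, for which it did not pass the filter (71 to 150 reads per library), Kcnj14 had 0.250, 0.230, and 0.270 RPKM in FC/FC, against 0.365, 0.435, and 0.333 in F/F, also without overlap. Without the filter its limma adjusted p for H3K4me3 was 0.597. Such lower, non-overlapping H3K4me3 values were found at 5.15% of the members, against 5.38% of all genes. Kcnf1 had 4.05, 2.62, and 2.67 RPKM of H3K4me2 in FC/FC, against 4.20, 3.08, and 3.79 in F/F, where the overlap came from FC/FC replicate 1. Its log2 fold change was -0.26 ± 0.18 (limma adjusted p = 0.354), and -0.45 ± 0.11 without that library (limma adjusted p = 0.0215). Without that library 8.48% of all genes tested were called lower and 21.1% higher, so calls were common over the genome in that setting. Kcna7, a voltage-gated channel of muscle, had 1.85, 1.31, and 1.28 RPKM of H3K4me2 in FC/FC, against 1.34, 1.27, and 1.33 in F/F, and Kcnk4 had 2.08, 1.54, and 1.41 in FC/FC, against 1.85, 1.43, and 1.97 in F/F. Both overlapped. Kcna7, Kcnk4, Kcnab3, and Kcnmb4os2 had log2 fold changes from -0.06 to 0.14.

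Kcnn1 and Kcnn4 did not pass the filter for H3K4me2, but their values were lower in FC/FC there as well. Kcnn1 had 0.807, 0.686, and 0.683 RPKM of H3K4me2 in FC/FC, against 0.932, 0.945, and 1.13 in F/F. Kcnn4 had 0.611, 0.571, and 0.478 in FC/FC, against 0.751, 0.855, and 0.818 in F/F. Neither gene overlapped between the genotypes, and without the filter limma gave -0.42 (adjusted p = 0.0692) for Kcnn1 and -0.48 (adjusted p = 0.0501) for Kcnn4. In that fit 2 other members passed, against 1.67% of all genes lower and 0.299% higher. Kcnk5 had 0.449, 0.414, and 0.406 RPKM in FC/FC, against 0.524, 0.569, and 0.555 in F/F (-0.31, limma adjusted p = 0.0475). Kcne1l, an X-linked relative of Kcne1 annotated as a pseudogene, had 0.0649, 0.0572, and 0.0492 in FC/FC, against 0.101, 0.122, and 0.110 in F/F (-0.43, limma adjusted p = 0.0397), and rested on 5 to 14 reads per library. Without both the filter and FC/FC replicate 1, a setting added after the data were seen, 13 members were called lower (13.4%, against 6.21% of all genes) and 0 higher (against 6.24%). In that fit the log2 fold changes were -0.49 for Kcnn1, -0.54 for Kcnn4, -0.35 for Kcnk5, and -0.46 for Kcne1l (limma adjusted p = 0.0281, 0.0248, 0.0248, and 0.0271).

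Without the filter, over all 97 members, 20 did not overlap and were lower in FC/FC for H3K4me2 (20.6%, against 12.7% of all genes), and 11 were higher (11.3%, against 17.3%). Without FC/FC replicate 1 these were 32 lower (33.0%, against 21.7%) and 14 higher (14.4%, against 29.5%). For H3K4me1, 9 were lower (9.28%, against 9.49%) and 27 were higher (27.8%, against 22%). For H3K4me3, 5 were lower (5.15%, against 5.38%) and 3 higher (3.09%, against 3.43%). Shares for H3K4me3 were thus near the background. Median log2 fold changes over all 97 members were 0.05, 0.02, and 0.01 for H3K4me1, H3K4me2, and H3K4me3, against 0.06, 0.04, and -0.0019 over all genes.

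**Figure D4:**
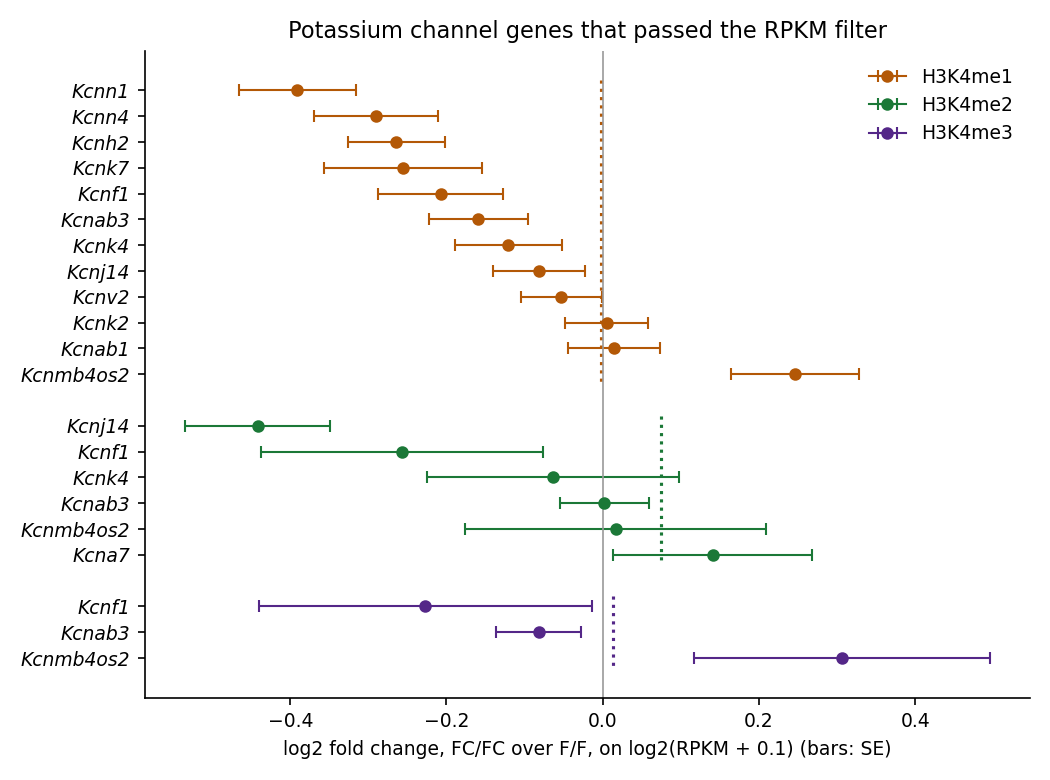
Log2 fold change, FC/FC over F/F (x axis, on log2(RPKM + 0.1)), of the potassium channel genes that passed the filter for each mark, with SE bars and a dotted line at the median over all genes tested for the mark. For H3K4me1, 9 of 12 members lie below 0, with Kcnn1 lowest at -0.39, and no member passed the test for any mark.

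Within the genes, H3K4me1 and H3K4me2 also lay far from start sites. Peaks of a mark were merged over its 6 libraries, which gave 278 H3K4me1, 224 H3K4me2, and 58 H3K4me3 regions in potassium channel genes. Of these, 123, 127, and 29 were present in all 6 libraries, and 83, 70, and 3 were both present in all 6 and more than 5 kb away from any annotated TSS. H3K4me1 regions in all libraries were most numerous in Kcnab1 (20 regions over 269 kb), Kcnh7 (18 over 481 kb), Kcnk2 (10 over 194 kb), and Kcnq1 (7 over 320 kb), which are long genes.

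The H3K4me1 regions with the highest mean peak score among these distal ones, chosen after their values were seen, lay in genes whose start sites differed in mark. In Kcnip1, which encodes a partner of A-type channels and had no TSS peak, an H3K4me1 region at chr11:33654122-33667217 in intron 1 scored 2608, 1673, and 2393 in FC/FC, against 2013, 2585, and 2071 in F/F. In Kcnk2 a region at chr1:189213407-189217892 in intron 5 scored 971, 1551, and 1940 for H3K4me1 in FC/FC, against 1103, 994, and 2221 in F/F. In Kcnq1 a region at chr7:143348504-143352026 in intron 11 scored 1392, 1186, and 1295 in FC/FC, against 1019, 859, and 1609 in F/F. Scores are those of the highest peak in a region, coordinates are those of mm10, and the genotypes overlapped at all 3. H3K4me3 was distal in all libraries at Kcnab3 (chr11:69331286-69332985, exon 11 of 14), Kcnk12 (chr17:87745153-87746952, the last of 2 exons), and Kcnip1 (chr11:33679929-33681184, intron 1). The Kcnab3 region lay 5028 bp from the nearest TSS, barely over the limit of 5 kb, against 51042 bp for Kcnk12 and 100972 bp for Kcnip1.

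Few regions were present in all libraries of one genotype and absent from the other. Regions with a peak in no FC/FC library and all 3 F/F libraries are called lost, and the reverse gained. For H3K4me1, 6 of 278 regions were lost in FC/FC (2.16%, against 0.793% of all regions of the genome) and 2 were gained (0.719%, against 0.43%). For H3K4me2, 6 of 224 were lost (2.68%, against 2.08%) and 0 gained (against 0.101%). For H3K4me3, 1 of 58 was lost (1.72%, against 0.531%) and 0 gained (against 0.0645%). FC/FC libraries had 56112 to 58585 H3K4me2 peaks and F/F libraries 62100 to 70437, so that fewer H3K4me2 peaks were called in FC/FC over the whole genome, and the part of this in the lost regions was not tested. With peak numbers made equal by taking the top-scoring ones of each library, 2 H3K4me1 and 2 H3K4me2 regions were lost, and 0 H3K4me3 regions. In that setting 2 H3K4me2 regions and 1 H3K4me3 region were gained, and the share of all regions was not computed. Leaving out a library loosens the rule, because a peak must then be present in, or absent from, fewer libraries. Counts can then only stay or rise, and the share of all regions was not computed for these settings. Without F/F replicate 2, 12 H3K4me1 and 11 H3K4me2 regions were lost, and without FC/FC replicate 2, 11 H3K4me2 regions. Gained H3K4me1 regions numbered 4, 5, and 5 without FC/FC replicates 1, 2, and 3, and 7 without F/F replicate 3. Without FC/FC replicate 1, 9 H3K4me2 regions were lost and 2 gained. Gained H3K4me3 regions numbered 4 without FC/FC replicate 2, 1 without F/F replicate 1, and 2 without F/F replicate 3.

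Kcnq1, which forms the slow delayed rectifier of the heart together with Kcne1, lost a pair of neighbouring regions in intron 1. The H3K4me1 region at chr7:143119336-143120830, 12.1 kb from the TSS, had no peak in FC/FC and scores of 130, 92.2, and 178 in F/F. The H3K4me2 region at chr7:143123867-143125019, 16.6 kb from the TSS, had no peak in FC/FC and scores of 110, 61.6, and 220 in F/F. A further H3K4me1 region of Kcnq1, at chr7:143313429-143314524 in intron 11, was absent in FC/FC and scored 74.8, 92.8, and 116 in F/F.

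Kcnh2 lost an H3K4me1 region at chr5:24336966-24338440 in intron 2, which scored 54.5, 80.3, and 142 in F/F, and an H3K4me3 region at chr5:24319896-24320908 over exon 15, the last, which scored 67.9, 51.3, and 121 in F/F. Its own TSS kept all 3 marks in every library. The H3K4me1 region of the Kcnh4 TSS is at chr11:100758752-100760509. The other lost H3K4me1 regions were in introns of Kcnk10 (chr12:98455953-98457796) and Kcnma1 (chr14:23584789-23585551), with F/F scores from 53.0 to 155.

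The lost H3K4me2 regions were also intronic. A pair lay in intron 1 of Kcnk12, at chr17:87762727-87763875 and chr17:87770535-87771559, with F/F scores from 101 to 189. Kcnab1 lost a region at chr3:65125243-65125988 in intron 1. The H3K4me2 and H3K4me3 regions at the last exon of Kcnk12 and the peaks at its TSS were present in all 3 FC/FC libraries.

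Gained regions were H3K4me1 only. One lay over exon 7 of Kcnh6 (chr11:106019791-106020889), with scores of 94.7, 56.8, and 98.3 in FC/FC and no peak in F/F. The other lay in intron 1 of Kcnq5 (chr1:21767444-21768485), with scores of 73.2, 137, and 72.9 in FC/FC and no peak in F/F. Scores in the lost and gained regions ran from 51.3 to 220, at a caller's minimum of 50, and with peaks of at least 100 alone, 0 H3K4me1 regions were lost and 1 was gained.

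Other channel genes of excitable cells were marked as follows at start sites. H3K4me3 lay at 1 of 14 sodium channel genes in all 6 libraries, 9 of 26 calcium channel genes, and 2 of 4 pacemaker channel genes (Hcn2 and Hcn4). H3K4me2 without H3K4me3 lay at 2 sodium and 2 calcium channel genes. Among 13 partner genes of potassium channels, 2 had H3K4me3, among them Amigo1, which encodes a membrane protein of neurons, and Lrrc26 and Kcnrg had H3K4me2 without it. All 9 genes of the REST repressor and its cofactors, which silence neuronal genes in other tissues, had H3K4me3 in all 6 libraries. In these lists limma called 0 of the 16 genes tested for H3K4me1, 0 of 17 for H3K4me2, and 0 of 12 for H3K4me3.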

How the data were processed

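H3K4me1, H3K4me2, and H3K4me3 ChIP-seq libraries of FC/FC and F/F MEFs were used (18 of 52 samples of the study, 3 per mark and genotype); the other 34 were not analysed here. Per the labels, the authors used CASAVA 1.4 and BWA 0.7.10, with mm10 as the genome, and called peaks with MACS 1.4.2, the methods naming H3 libraries as the control. The deposited RPKM values cover refGene transcripts with 500 bp on each side, relative to reads within transcripts and not to H3. The deposited peak score is the log10 p-value of a peak multiplied by -10, with a minimum of 50. The methods state that the authors dropped peaks in blacklisted regions before later steps; whether the deposited lists precede that step is not given in the sources used here. The authors' column of active genes was used for a count only.

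The members and gene lists were chosen with earlier results of these data known. The longest transcript of at least 250 bp stood for each symbol. Genes over 1 RPKM in at least 3 of 6 libraries were tested with limma 3.58.1 (R 4.3.3, trend, one fit per mark) on log2(RPKM + 0.1), a scale that understates changes of low genes, with Benjamini-Hochberg adjustment over all genes of the mark and a threshold of 0.05. Whole reads were recovered from RPKM in 100% of values (within 0.01 read) and tested with limma-voom as an alternative. Tests were checked on simulated data. A peak within 1 kb of the TSS marked a gene, and a distal region lay over 5 kb from every TSS. Named were, per mark, the 5 members with the highest mean RPKM and the 5 tested with the largest absolute log2 fold change, members with a TSS peak or region in all libraries of one genotype only, and up to 5 of a TSS class by RPKM. The other members named, among them the rest of each class and those with variable H3K4me3, were chosen after their values were seen. Some genes that the counts include are not reported here by name. No columns of the tables were left unassigned. RefSeq promoters (GRCm38.p6) matched the start site of 60 of 97 members within 100 bp (61.9%, where 80% was required), so base composition and motifs were not compared between classes. Alternatives were the pseudocount, the filter, the transcript, scaling, limma-voom, 1 fit over all marks, the TSS window, peak thresholds, leaving out each library, and, added after the data were seen, leaving out the filter and H3K4me2 FC/FC replicate 1 together.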

Additional observations from a re-analysis of the deposited data

How the results depend on the processing

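Each result on the potassium channel genes was recomputed with other settings, and the cause of a difference was not tested. Of the alternatives for counts, 101 were close to the value given and 32 moved. Of those for single genes, 286 kept direction and side of the threshold, 11 passed it, and 22 changed sign. For H3K4me1 calls, 1 member (Kcnn1) passed with quantile normalization, with median centring, and with a single fit of all libraries. With limma-voom 3 passed, all lower in FC/FC, against 6.88% of all genes tested. For H3K4me2 calls, 2 passed without a filter, 13 without both the filter and FC/FC replicate 1 (added after the data were seen), and 1 each with the shortest transcript (Kcnh2), median centring (Kcnj14), and a single fit (Kcnj14), and leaving out each library gave 0 to 2, with 2 (Kcnf1 and Kcnj14) without FC/FC replicate 1. For H3K4me3 no setting gave a call, and leaving out each library gave 0 to 0 for H3K4me1 and H3K4me3. Shares of all genes called with quantile normalization, median centring, a single fit, and the shortest transcript are not given here. The single calls in those settings therefore stand without a background. Over all genes, leaving out FC/FC replicate 1 gave 2105 H3K4me2 calls higher and 847 lower, against 59 and 155. The difference in members with a TSS peak (FC/FC minus F/F) was 5.33 for H3K4me2 with equal numbers of top peaks and 0.667 for H3K4me3 at scores of at least 100. Leaving out each library gave -0.5 to 6 for H3K4me1, -1.5 to 2 for H3K4me2, and 2.83 to 4.83 for H3K4me3. For regions, scores of at least 100 gave 0 lost and 1 gained for H3K4me1, 1 gained for H3K4me2, and 0 lost for H3K4me3. Equal numbers of top peaks gave 2 lost for H3K4me1, 2 lost and 2 gained for H3K4me2, and 0 lost and 1 gained for H3K4me3. Leaving out each library gave 6 to 12 lost and 2 to 7 gained for H3K4me1, 8 to 11 lost and 0 to 2 gained for H3K4me2, and 1 to 1 lost and 0 to 4 gained for H3K4me3. These region counts can only stay or rise when a library is left out. Sign changes occurred in 6 log2 fold changes of named genes, each of a size up to 0.14. Quantile normalization gave -0.018 for Kcnab1 and -0.016 for Kcnk2 (H3K4me1), and -0.076 for Kcnab3 and -0.066 for Kcnmb4os2 (H3K4me2). Median centring gave -0.053 for Kcnab3 and -0.039 for Kcnmb4os2, and limma-voom -0.044 for Kcnmb4os2. Leaving out each library gave -0.011 to 0.052 for Kcnab1 and -0.019 to 0.022 for Kcnk2 (H3K4me1), and -0.020 to 0.23 for Kcna7, -0.052 to 0.036 for Kcnab3, -0.22 to 0.044 for Kcnk4, and -0.21 to 0.14 for Kcnmb4os2 (H3K4me2). Without both the filter and FC/FC replicate 1, H3K4me2 gave -0.020 for Kcna7, -0.052 for Kcnab3, and -0.21 for Kcnmb4os2. No paired analysis was possible because the labels do not tie a library of one genotype to a library of the other.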
